A study of Mus musculus with 14 samples.

Results

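The 41 genes described here are the listed neighbours of Celf1 (formerly Cugbp1) on mouse chromosome 2, the gene that carries the gene trap in these animals. They were listed by position and name, with earlier results of these data known. Each listed symbol was looked up in the array's probe annotation, and all 41 of the 41 were found among the 21893 genes measured. Along the chromosome they run from Ptprj, 9 measured genes before Celf1, to Accs, 45 measured genes after it, with 9 members on the one side and 32 on the other. A further 13 measured genes lie between the outermost members and are not on the list, 1 of them between Celf1 and the next member, Psmc3.

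RNA of newborn mice was hybridised to 14 Agilent arrays of 1 colour (Cy3): brain of 4 wild-type (WT) and 4 knockout (KO) samples, and skeletal muscle of 3 WT and 3 KO samples. All samples were labelled as C57BL6, taken at 1 day of age, and untreated. The KO samples carry a trap vector inserted ahead of the start codon of Cugbp1, made in BayGenomics embryonic stem cells that were injected into C57BL6 mice. The labels used here do not give the zygosity beyond KO, the strain of the stem cells, the number of backcrosses, or whether the samples of a group came from separate litters or animals, so the p-values measure only the spread between these samples, which may be technical.

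Celf1 encodes an RNA-binding protein that controls splicing, translation and decay of messenger RNAs, and it is studied in muscle because its activity is raised in myotonic dystrophy. A gene trap is a cassette with a splice acceptor that ends the transcript of its host gene early. Genes beside a trapped locus are followed for a general reason: the cassette can alter transcription near its insertion, and a stretch of the stem cells' own chromosome stays linked to the trapped allele through breeding, so its neighbours can carry other alleles than the WT controls. The neighbours of Celf1 share a place, not a pathway. They include subunits of the proteasome and of mitochondrial complex I, myeloid and sterol-sensing transcription factors, a sarcomere protein, autophagy factors, enzymes of sugar chains and synaptic signalling proteins.

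Start-site windows of 300 bases (RefSeq, build GRCm38.p6) were found for 31 of the 41 members, 47 windows in all. A selection is shown here, and no link between a window and a measured level was tested. Capitals mark matches, on either strand, to the GC box (GGGCGG), the CCAAT box, the TATA box (searched as TATAAA) and the E-box (CANNTG). They also mark a loose form of the MEF2 core, CTA and TAG with any 4 bases between, called the MEF2 pattern here. Overlapping matches to different motifs were counted for each. The window of Celf1 comes first as that of the trapped gene, and it held 34 CpG pairs and 6 GC boxes. Where the insertion lies relative to this window is not given in the sources used here.
Celf1, chr2:90940147-90940446, forward strand: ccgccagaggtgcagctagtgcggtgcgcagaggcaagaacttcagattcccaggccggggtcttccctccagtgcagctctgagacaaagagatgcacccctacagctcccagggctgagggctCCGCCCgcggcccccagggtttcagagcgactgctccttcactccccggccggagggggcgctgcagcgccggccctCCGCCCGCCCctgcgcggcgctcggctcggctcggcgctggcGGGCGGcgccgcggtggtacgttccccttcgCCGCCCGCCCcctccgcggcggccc
The next windows belong to members that start back to back with another member, so that a divergent pair shares bases: 118 and 220 bases between Ndufs3 and the 2 windows of Kbtbd4, 174 between Zfp408 and Arhgap1, and 241 between Atg13 and Harbi1.
Ndufs3, chr2:90904672-90904971, reverse strand: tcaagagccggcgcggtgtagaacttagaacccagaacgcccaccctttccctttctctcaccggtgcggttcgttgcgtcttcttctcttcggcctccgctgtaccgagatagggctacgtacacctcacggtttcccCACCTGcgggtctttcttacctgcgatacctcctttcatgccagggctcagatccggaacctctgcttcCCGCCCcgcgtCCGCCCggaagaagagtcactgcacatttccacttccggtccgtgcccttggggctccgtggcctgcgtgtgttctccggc
Zfp408, chr2:91649742-91650041, reverse strand: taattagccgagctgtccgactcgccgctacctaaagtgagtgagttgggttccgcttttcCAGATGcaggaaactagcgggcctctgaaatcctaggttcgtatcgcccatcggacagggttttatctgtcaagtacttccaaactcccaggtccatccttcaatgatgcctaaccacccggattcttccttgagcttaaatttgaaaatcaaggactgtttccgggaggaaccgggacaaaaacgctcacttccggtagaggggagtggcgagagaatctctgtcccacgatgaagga
Atg13, chr2:91710543-91710842, reverse strand: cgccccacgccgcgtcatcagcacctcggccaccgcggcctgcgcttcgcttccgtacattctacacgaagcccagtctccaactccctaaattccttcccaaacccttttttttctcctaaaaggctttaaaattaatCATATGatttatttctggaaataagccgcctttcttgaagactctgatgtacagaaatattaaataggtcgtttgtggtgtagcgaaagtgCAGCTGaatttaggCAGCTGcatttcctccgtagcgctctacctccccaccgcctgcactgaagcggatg
The last 3 belong to members with large differences between the tissues. Pacsin3 and Mybpc3 held the only matches to the MEF2 pattern among the member windows, with ACCC and TATT between CTA and TAG. For Pacsin3 the matching window was picked for printing, and its other window held 0 matches to this pattern. Chst1 held no match to any of the motifs.
Pacsin3, chr2:91257079-91257378, forward strand: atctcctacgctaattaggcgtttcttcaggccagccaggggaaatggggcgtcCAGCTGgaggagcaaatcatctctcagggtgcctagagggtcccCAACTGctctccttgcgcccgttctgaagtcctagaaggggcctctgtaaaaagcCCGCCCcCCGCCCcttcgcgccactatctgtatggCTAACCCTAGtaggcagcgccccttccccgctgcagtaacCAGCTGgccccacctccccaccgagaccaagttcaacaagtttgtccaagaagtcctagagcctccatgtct
Mybpc3, chr2:91117894-91118193, forward strand: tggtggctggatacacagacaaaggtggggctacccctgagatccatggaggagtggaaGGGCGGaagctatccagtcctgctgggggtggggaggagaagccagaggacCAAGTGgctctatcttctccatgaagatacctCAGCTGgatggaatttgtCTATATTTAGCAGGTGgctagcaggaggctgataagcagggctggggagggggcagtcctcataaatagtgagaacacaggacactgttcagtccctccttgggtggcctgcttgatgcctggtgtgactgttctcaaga
Chst1, chr2:92600867-92601166, forward strand: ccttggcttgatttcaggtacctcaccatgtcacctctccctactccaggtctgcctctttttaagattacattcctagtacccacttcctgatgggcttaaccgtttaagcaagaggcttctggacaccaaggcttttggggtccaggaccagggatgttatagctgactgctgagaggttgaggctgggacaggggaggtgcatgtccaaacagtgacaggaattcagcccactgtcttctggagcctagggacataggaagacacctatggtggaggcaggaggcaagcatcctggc

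As a group the member windows were rich in CpG pairs, with a median of 14 per window against 7 over all 32851 windows of the table, and 36 of the 47 lay above that overall median. Their median GC content was 57.0% against 52.7%. GC boxes were present in 23 of the 47 member windows (48.9%, against 35.7% of all windows), the CCAAT box in 12 (25.5% against 37.4%), the TATA box in 4 (8.5% against 13.6%) and the E-box in 33 (70.2% against 72.3%). The MEF2 pattern was present in 2 (4.3% against 3.7%). A match is a description of letters in these windows and not a binding site.

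Levels below are log2 intensities minus the 75th percentile of the named probes of the same array, which was 883.2 to 1397.6 between arrays, and fold changes are differences of these levels. The dimmest probe of an array read 2.04 to 3.51, and 22.2% to 30.4% of probes read less than 2-fold above that floor. The tissues carried their defining markers. The 8 neuron markers summed to 143 to 165 times the 75th percentile in brain and to 18.8 to 30.6 in muscle. Among them Snap25 did not separate the tissues, with mean WT intensities of 20700 in brain and 19500 in muscle, while the others were higher in WT brain. The 8 skeletal muscle markers summed to 882 to 1390 in muscle and to 0.86 to 2.21 in brain. In KO brain, 8 of 8 skeletal muscle, 6 of 6 astrocyte and 7 of 8 neutrophil markers lay below 0 (medians -0.44, -0.43 and -1.20), and in KO muscle 7 of 8 liver, cartilage and bone, and keratinocyte markers each lay above 0 (medians 1.07, 1.56 and 1.29), while 4 of 4 erythroid and 6 of 6 endothelial markers lay below 0 (medians -1.05 and -0.23), with 0 of any of these lists past the threshold; their part in the members' values was not tested. In whole tissue, fewer cells of a type and less RNA per cell cannot be told apart. Brain WT arrays 3 and 4 were known from earlier results of these data to stand apart from brain WT arrays 1 and 2. They differed from each other by 0.244 log2 on average over all genes, and the other 5 pairs of brain WT arrays by 0.382 to 0.442.

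For the trapped gene, Celf1, every KO array lay below every WT array of its tissue. Its levels in brain were 2.30, 2.32, 2.28 and 2.35 in the WT arrays and 0.69, 0.63, 0.57 and 0.51 in the KO arrays. In muscle they were 1.81, 2.03 and 1.67 in WT and -0.43, -1.30 and -1.08 in KO. Some signal remained in all KO arrays. The log2 fold change was -1.71 ± 0.082 (SE) in brain, 3.27-fold lower, with an adjusted p of 0.000534 (limma, Benjamini-Hochberg over all 21893 genes). In muscle it was -2.77 ± 0.298 (SE), 6.83-fold lower, and did not pass the threshold of 0.05 with the muscle arrays alone (adjusted p 0.312, limma). With 1 model over all 14 arrays the same muscle difference had an adjusted p of 5.35e-05. In brain the call was lost without WT arrays 3 and 4 (adjusted p 0.08) and with the array number as a block (0.23), with the log2 fold change at -1.71 in each, and it held without any single array. All 3 Celf1 probes on the array were lower in KO, with log2 fold changes of -1.97 to -1.53 in brain and of -3.96 to -2.77 in muscle. Where these probes lie relative to the insertion is not given in the sources used here.

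No neighbour moved with it past the threshold. Of the 41 members, 0 passed an adjusted p of 0.05 in brain (limma), where 5 of all genes did (0.0228%), and 0 passed in muscle, where 0 of all genes did (0%). At an unadjusted p under 0.05 the members numbered 2 in brain (4.88%, against 8.35% of all genes) and 0 in muscle (against 1.56%). These counts use 1 probe per gene. In brain 1 unused probe each of Nr1h3 (log2 -0.56), Prdm11 (-0.37), Ptprj (-0.33) and Madd (-0.31) was also under 0.05 (unadjusted, limma). The other unused probes of members were not, and the share over all probes was not counted. With the mean of all probes of a gene, 3 members were under it in brain (7.32%, against 8.53% of all genes). The KO arrays lay wholly on one side of the WT arrays for 1 member in brain (2.44%, against 3.86% of all genes) and for 1 member in muscle (2.44%, against 3.96%). Leaving out single arrays, the members under an unadjusted p of 0.05 numbered 0 without brain WT array 3, KO array 3 or KO array 4 (4.51%, 6.24% and 5.18% of all genes) and up to 6 without brain WT array 2 (14.6%, against 16.6% of all genes), and in muscle 0 to 1, the latter without WT array 2 (2.44%, against 3.87%). With each single array left out in turn, the members' share lay under that of all genes in both tissues; without brain WT arrays 3 and 4 together it was 4.88% against 3.58%.

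The median log2 fold change of the members was -0.02 in brain and -0.01 in muscle, beside 0.01 and -0.03 over all genes. Their median absolute change was 0.147 in brain against 0.155 over all genes, and 0.169 in muscle against 0.221. In brain 20 members lay above 0 and 21 below, with a range of -0.93 to 0.43. In muscle 17 lay above 0 and 24 below, with a range of -0.38 to 0.70. Without scaling between arrays 28 of the members lay above 0 in muscle, where that setting moved the median of all genes to 0.14 and that of the members to 0.15.

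The precision differed between the tissues. In brain the 95% interval of the fold change stayed within 1 log2 unit of 0 for 37 of the 41 members (90.2%, against 79.8% of all genes) and within 0.5 for 27. The exceptions were Agbl2, Spi1, Mybpc3 and F2, which were dim in brain, with mean WT intensities of 9.97, 15.1, 7.86 and 17.2. In muscle the interval stayed within 1 log2 unit for 25 members (61%, against 49.3%) and within 0.5 for 0. In muscle, with 3 arrays a group, no member's interval left out changes of 0.5 log2 in both directions.

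**Figure D1:**
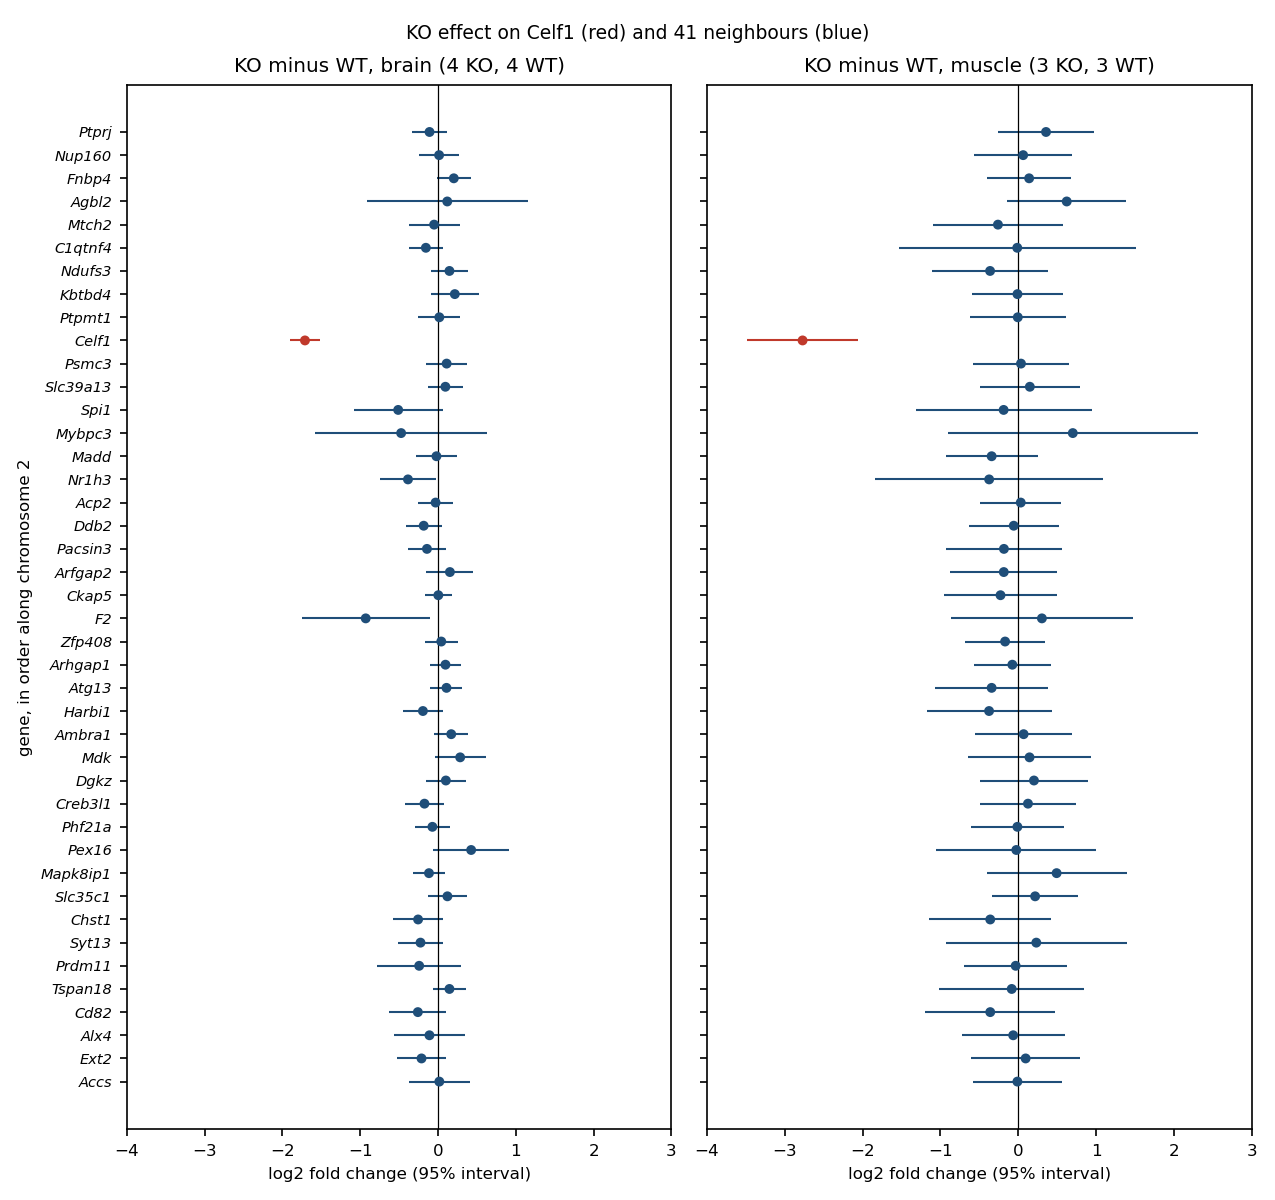
Log2 fold change of KO against WT (x axis) for Celf1 in red and its 41 listed neighbours in blue, in their order along chromosome 2 (y axis), in brain on the left and muscle on the right; points are estimates and bars are 95% intervals. Celf1 stands at -1.71 and -2.77, while the neighbours lie between -0.93 and 0.43 in brain and between -0.38 and 0.70 in muscle.

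The 3 members nearest to Celf1 on each side had overlapping WT and KO arrays in both tissues. Ptpmt1, a mitochondrial phosphatase needed for cardiolipin synthesis, is the next measured gene before Celf1. Its brain levels were 2.08, 2.28, 2.08 and 2.02 in WT and 2.00, 2.17, 1.98 and 2.36 in KO, and the groups overlapped. Its muscle levels were 3.07, 3.19 and 2.60 in WT and 2.87, 2.83 and 3.14 in KO, again with overlap. The log2 fold changes were 0.02 (95% interval -0.25 to 0.29) in brain and -0.01 (-0.62 to 0.61) in muscle.

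Kbtbd4, a substrate adaptor of a cullin ubiquitin ligase, had brain levels of 0.70, 0.58, 0.27 and 0.28 in WT and 0.52, 0.59, 0.78 and 0.80 in KO. WT arrays 3 and 4 were the low ones, and WT arrays 1 and 2 lay within the KO range. In muscle it stood at 0.42, 0.74 and 0.26 in WT and at 0.54, 0.25 and 0.60 in KO, with a log2 fold change of -0.01 (-0.60 to 0.57). Ndufs3, a core subunit of complex I, measured 4.02, 4.07, 3.85 and 3.87 in WT brain and 3.98, 4.14, 4.00 and 4.27 in KO brain. In muscle its WT levels were 5.96, 5.50 and 5.16 and its KO levels 5.36, 4.78 and 5.41, so that the highest array was a WT and the lowest a KO but the groups overlapped. Its log2 fold changes were 0.15 (-0.10 to 0.39) in brain and -0.36 (-1.10 to 0.38) in muscle.

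On the other side, Psmc3 encodes an ATPase of the proteasome's regulatory particle. It had brain levels of 5.32, 5.24, 4.95 and 4.95 in WT and 5.28, 5.16, 5.26 and 5.21 in KO. Its muscle levels were 5.57, 5.98 and 5.55 in WT and 5.68, 5.51 and 6.02 in KO. The KO arrays fell inside the WT range in brain, and the log2 fold changes were 0.11 (-0.15 to 0.37) and 0.03 (-0.58 to 0.65). Slc39a13, a zinc transporter of the secretory pathway, stood at -0.34, -0.38, -0.60 and -0.60 in WT brain and at -0.31, -0.38, -0.39 and -0.46 in KO brain, with overlap. In muscle its levels were 1.08, 1.35 and 0.62 in WT and 1.16, 1.02 and 1.32 in KO, a log2 fold change of 0.15 (-0.50 to 0.79). Spi1, the transcription factor that directs myeloid and B cells, was near the floor of the arrays in all groups, with mean intensities of 15.1 and 10.5 in WT and KO brain and 13.6 and 15.4 in WT and KO muscle. Its muscle levels were -5.78, -6.40 and -6.46 in WT and -7.35, -5.59 and -6.27 in KO, with overlap.

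**Figure D2:**
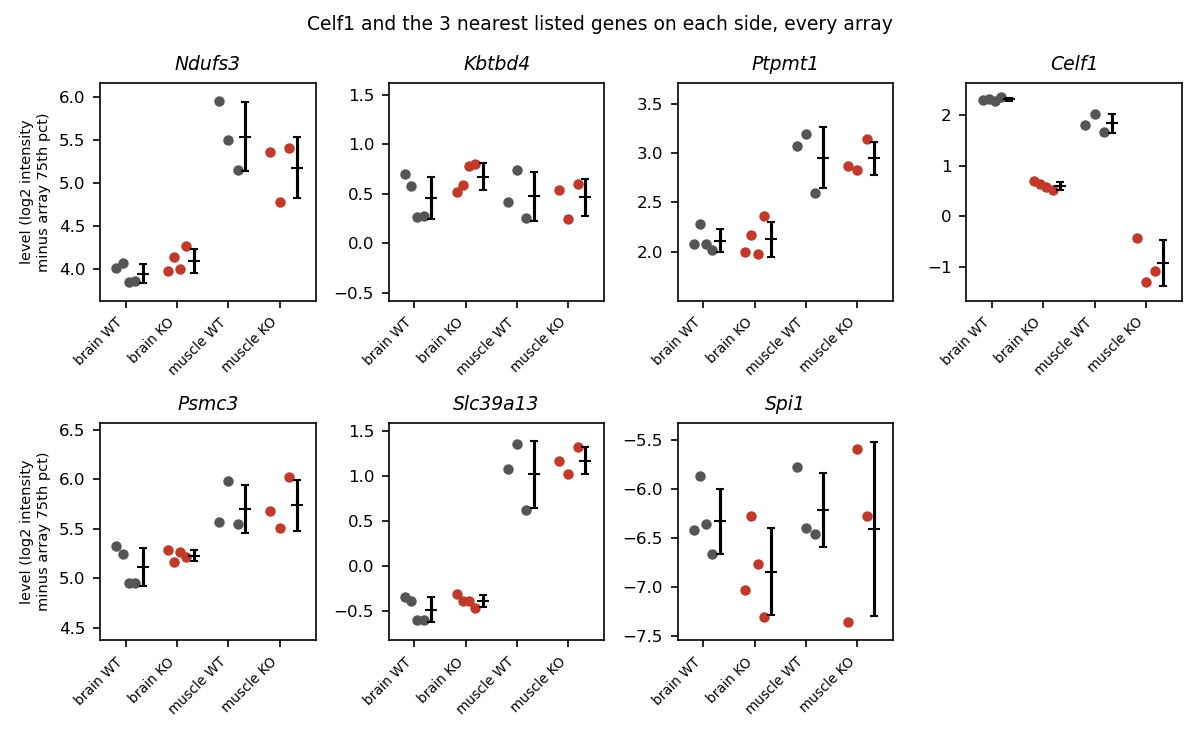
Level of Celf1 and of the 3 nearest listed genes on each side in every array (y axis, log2 intensity minus the array's 75th percentile; each panel has its own y range), by group on the x axis; points are arrays, and the black mark with its bar is the mean and SD. The Celf1 groups are apart in both tissues, and the WT and KO arrays of the other 6 genes overlap.

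The brain members with the smallest p were F2, Nr1h3, Fnbp4, Spi1 and Mdk, each with an adjusted p of 0.58 (limma). F2 encodes prothrombin, which the liver secretes into blood. Its brain levels were -6.61, -6.74, -5.53 and -5.75 in WT and -6.37, -7.25, -7.05 and -7.67 in KO. KO array 1 lay among the WT arrays, and WT arrays 3 and 4 were the highest. The log2 fold change was -0.93 ± 0.36 (SE), and it was -0.41 without WT arrays 3 and 4 and -0.20 with 50 added to each intensity. The 8 liver markers were all below 0 in KO brain, with a median log2 fold change of -1.61 and 0 past the threshold; no marker was at 0. Their summed level was 33.9 to 48.9 in WT and 24.6 to 47.8 in KO, most of it from Ttr, which the choroid plexus of the brain also makes and which stood at a log2 fold change of -0.08. Without Ttr, a setting chosen after seeing the data, the other 7 summed to 0.843 to 3.45 in WT and to 0.97 to 1.35 in KO, with a median log2 fold change of -1.78, and their part in the F2 values was not tested.

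Nr1h3 encodes the oxysterol receptor LXR alpha, which turns on cholesterol export genes, in macrophages among other cells. It measured -2.57, -3.04, -2.76 and -2.96 in WT brain and -3.06, -2.97, -3.32 and -3.52 in KO brain, where only KO array 2 lay inside the WT range. The log2 fold change was -0.39 ± 0.16 (SE), and a second probe gave -0.56. Spi1 had brain levels of -6.42, -5.87, -6.36 and -6.66 in WT and of -7.03, -6.27, -6.76 and -7.30 in KO, a log2 fold change of -0.51 ± 0.25 (SE) with overlapping groups. The 11 macrophage and microglia markers were all below 0 in KO brain as well, with a median of -0.27 and 0 past the threshold; they summed to 9.53 to 14.2 in WT and to 9.33 to 10.6 in KO, none was at 0, and their part in the Spi1 and Nr1h3 values was not tested. In muscle the same 11 markers split into 6 below 0 and 5 above.

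Fnbp4, a formin-binding protein, was the 1 member whose brain groups did not overlap. Its levels were -1.62, -1.47, -1.60 and -1.55 in WT and -1.19, -1.44, -1.40 and -1.40 in KO, so that the gap between the nearest arrays was smaller than the spread within KO. The log2 fold change was 0.20 ± 0.093 (SE). Mdk encodes midkine, a heparin-binding growth factor abundant in the developing brain. It stood at 0.42, 0.77, 0.94 and 0.93 in WT and at 1.06, 0.90, 1.25 and 1.00 in KO, where WT array 1 was the low one and KO array 2 lay inside the WT range. The log2 fold change was 0.29 ± 0.14 (SE), and both Mdk probes were above 0, at 0.21 and 0.29.

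The muscle members with the smallest p were Agbl2, Ptprj, Madd, Mapk8ip1 and Ndufs3, all with an adjusted p of 1.0 (limma). Agbl2, a carboxypeptidase that trims the tails of tubulin, was the 1 member without overlap in muscle, at -5.56, -5.22 and -6.25 in WT and at -5.20, -4.85 and -5.11 in KO. The nearest arrays, at -5.22 and -5.20, almost met, the mean intensities were 20.8 and 34.1, and the 3 Agbl2 probes ranged from -0.07 to 0.62 log2. Ptprj, a receptor tyrosine phosphatase, measured -2.26, -2.36 and -2.46 in WT and -2.32, -1.64 and -2.04 in KO, with KO array 1 inside the WT range. Its log2 fold change was 0.36 ± 0.26 (SE), and its 4 probes ranged from -0.03 to 1.07.

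Madd, an exchange factor for Rab proteins of synaptic vesicles, had muscle levels of 4.13, 3.80 and 4.42 in WT and 3.77, 3.70 and 3.85 in KO. The groups overlapped, the log2 fold change was -0.34 ± 0.25 (SE), and the other Madd probe gave 0.86. Mapk8ip1, a scaffold of JNK signalling, stood at 1.57, 2.47 and 1.37 in WT and at 2.44, 1.83 and 2.61 in KO, a log2 fold change of 0.49 ± 0.38 (SE) with overlap.

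**Figure D3:**
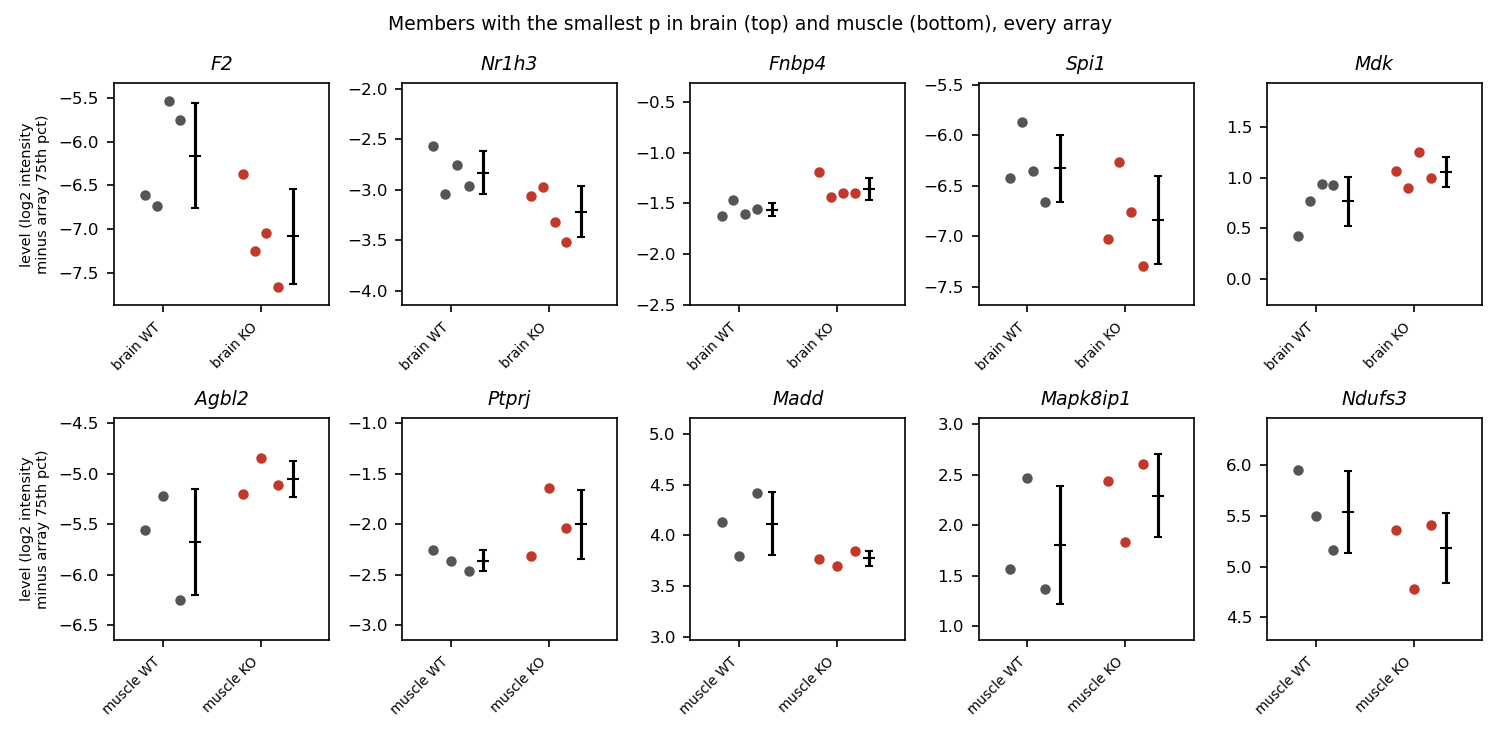
Levels (y axis, log2 intensity minus the array's 75th percentile; each panel has its own y range) in every WT array in grey and KO array in red of the 5 members with the smallest p in brain (top) and in muscle (bottom); the black mark with its bar is the mean and SD. The groups overlap in 8 of the 10 panels, and are apart for Fnbp4 in brain and Agbl2 in muscle.

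By role, the members scattered around 0. The 3 of the proteasome, DNA repair and nuclear pore (Psmc3, Ddb2, Nup160) ranged from -0.18 to 0.11 in brain and from -0.06 to 0.06 in muscle. The 4 of mitochondria and peroxisomes (Ndufs3, Mtch2, Ptpmt1, Pex16) ranged from -0.05 to 0.43 in brain, with Pex16, a peroxisome assembly factor, at the top, and from -0.36 to -0.01 in muscle. Of the 7 transcription and chromatin factors (Spi1, Nr1h3, Creb3l1, Phf21a, Prdm11, Alx4, Zfp408), 6 were below 0 in brain and 6 in muscle, with medians of -0.17 and -0.07, and 0 passed the threshold. The 6 of the Golgi, lysosome and sugar chains (Acp2, Arfgap2, Slc35c1, Chst1, Ext2, Slc39a13) lay between -0.26 and 0.15 in brain and between -0.36 and 0.22 in muscle.

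The autophagy factors Atg13 and Ambra1 stood at 0.11 and 0.17 in brain and at -0.34 and 0.07 in muscle. The 5 signalling adaptors and enzymes (Madd, Mapk8ip1, Dgkz, Arhgap1, Ptprj) ranged from -0.12 to 0.10 in brain and from -0.34 to 0.49 in muscle. The 3 secreted proteins (C1qtnf4, Mdk, F2) ranged from -0.93 to 0.29 in brain and from -0.01 to 0.30 in muscle. The membrane and vesicle proteins Cd82, Tspan18 and Syt13 were at -0.26, 0.15 and -0.22 in brain and at -0.36, -0.08 and 0.23 in muscle. Mybpc3, the myosin-binding protein of the heart sarcomere, and Pacsin3, a membrane-bending protein of muscle, were at -0.47 and -0.14 in brain and at 0.70 and -0.18 in muscle. The tubulin and formin group (Ckap5, Agbl2, Fnbp4) lay between 0.00 and 0.20 in brain and between -0.23 and 0.62 in muscle. The last 3, Kbtbd4, Harbi1 and Accs, lay between -0.19 and 0.22 in brain and between -0.38 and -0.01 in muscle. All these values are from 1 probe per gene, and other probes could differ in sign. In brain the probes of Agbl2 ranged from -0.97 to 0.12 and those of Mtch2 from -0.05 to 0.47. Those of Ptprj ranged from -0.33 to 0.54 and those of Tspan18 from -0.45 to 0.17. In muscle the probes of Agbl2, Madd, Mtch2, Phf21a, Ptprj and Tspan18 held both signs. Members with several probes that are not named for a tissue held a single sign there.

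Whether a neighbour answered the trap differently in the tissues was tested as the KO effect in brain minus that in muscle. Of the 41 members 0 passed the threshold (limma), against 2 of all genes (0.00914%), and 0 had an unadjusted p under 0.05, against 3.09% of all genes. Leaving out single arrays, 0 to 3 had one, with 3 (7.32%) without muscle WT array 3 or muscle KO array 2, against 4.75% and 4.24% of all genes. The largest differences were those of F2, at -1.23 log2, and Mybpc3, at -1.18, each with an adjusted p of 1.0, and both genes were dim in brain. The fold changes had the same sign in both tissues for 22 of the 41 members (53.7%, against 55.4% of all genes), 9 of them above 0 and 13 below. Across the members the fold changes of the tissues had a Pearson r of -0.07 and a Spearman coefficient of 0.11, against 0.15 and 0.16 across all genes. Neighbouring genes are not independent replicates, and the arrays of a tissue are shared by all of them.

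Members near the trap and farther from it had values of similar size. The 19 within 12 measured genes of Celf1 had a median absolute change of 0.142 in brain and 0.184 in muscle, and the 22 farther away 0.158 and 0.157. The 9 before Celf1 had a median of 0.02 in brain and -0.01 in muscle, and the 32 after it -0.05 and -0.03. The 13 unlisted genes among them had a median absolute change of 0.218 in brain and 0.193 in muscle, with 0 past the threshold in either, and 0 of the 13 in brain and 2 in muscle (15.4%) had no overlap of the genotypes.

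The rest of chromosome 2 gives the setting for these values. In steps of 20 measured genes, the share without overlap of the genotypes in brain was 5% among the 20 genes before Celf1 and 0% among the 20 after it, 0% from 21 to 40 and 5% from 41 to 60. It was 25% from 181 to 200, 35% from 201 to 220, 35% from 221 to 240, 10% from 241 to 260 and 25% from 261 to 280. Outside these steps it reached 15% from 61 to 80, 281 to 300 and 301 to 320, and 20% from 341 to 360. The stretch from Pak6, 198 measured genes after Celf1, to Serinc4, 275 after it, was known from earlier results of these data to hold many such genes and is given as a description. Of its 78 measured genes 20 did not overlap in brain (25.6%, against 2.44% of the members) and 11 in muscle (14.1%, against 2.44%), and 27 and 7 had an unadjusted p under 0.05. Its median absolute change was 0.272 in brain and 0.305 in muscle. Apart from Celf1, the 1 chromosome 2 gene past the threshold in brain was Serinc4, at 1.02 log2 (adjusted p 0.0265, limma), and in muscle 0 passed. The Serinc4 call was lost without scaling (0.24), with the array number as a block (0.542), in 1 model over all arrays (0.0693), without brain WT arrays 3 and 4 (0.165) and without every single array other than brain WT array 2 (0.0563 to 0.168), with the log2 fold change at 0.98 to 1.06 in these fits.

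**Figure D4:**
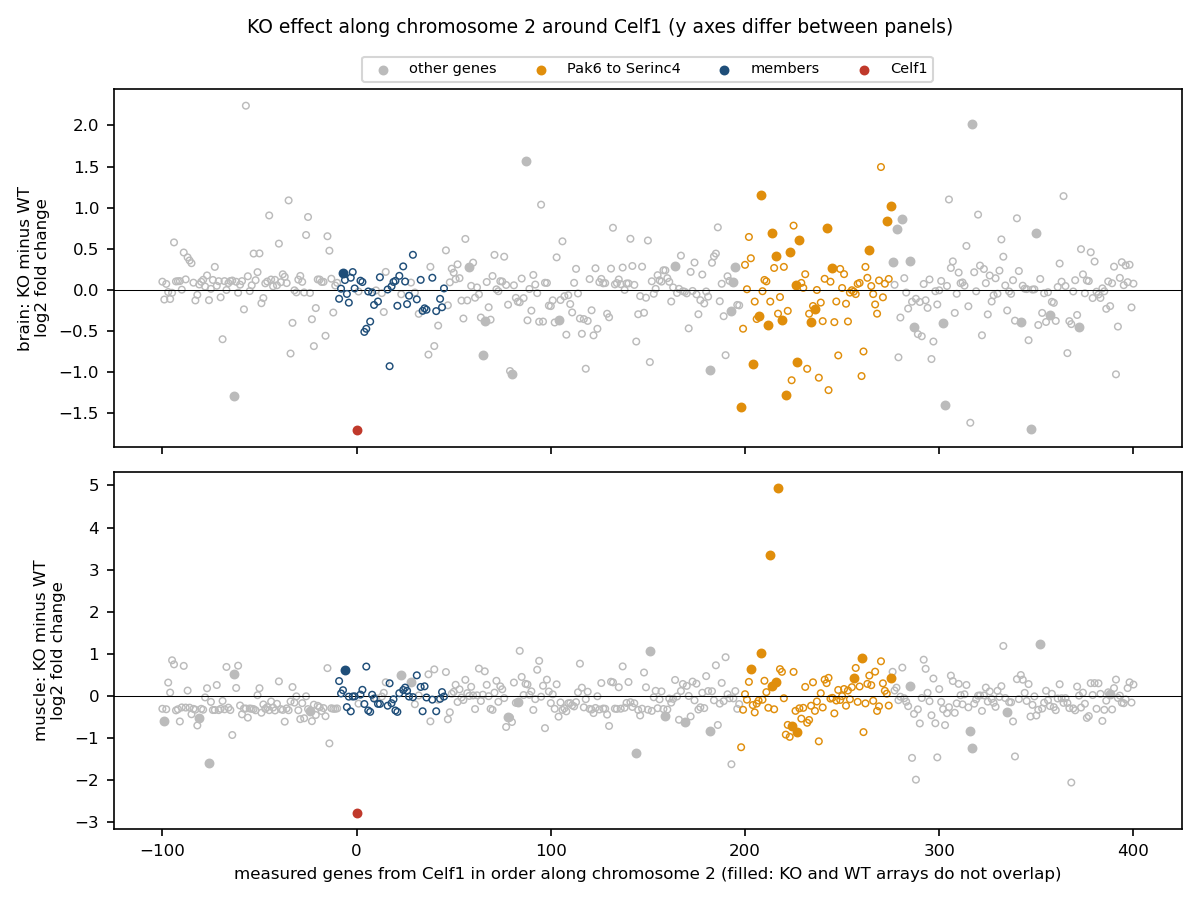
Log2 fold change of KO against WT (y axis) of each measured gene from 100 before to 400 after Celf1 (x axis, gene order), in brain above and muscle below; filled points are genes whose KO and WT arrays do not overlap. The members in blue lie close to 0 with 1 filled point in each tissue, and the filled points gather in the orange stretch from Pak6 to Serinc4, with 20 of 78 in brain and 11 of 78 in muscle.

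Most members differed between the tissues. Between WT brain and WT muscle 31 of the 41 passed the threshold (75.6%, against 54.9% of all genes; limma), 13 higher in brain (against 25.3% of all genes) and 18 higher in muscle (against 29.5%). The arrays of the tissues did not overlap for 33 members (80.5%, against 57.1%). At an unadjusted p under 0.05 (limma) the shares were 78% of the members and 59.1% of all genes. Among genes above the median level they were closer, at 82.4% and 72.7%. The median difference was -0.47 and the median absolute difference 0.983, against 0.933 over all genes. Of the 31 calls, 17 held under every alternative setting tried, 7 of them higher in brain and 10 higher in muscle. Without scaling the calls split into 13 higher in brain and 13 higher in muscle, and that setting moved the median of all genes from -0.04 to 0.17. The shares at an unadjusted p under 0.05 (limma) were then 70.7% of the members and 56.2% of all genes. With the array number as a block, 26 members and 11167 of all genes passed. The calls of Psmc3, Fnbp4, Agbl2, Ckap5 and Ext2 were lost, at adjusted p values of 0.0807, 0.0704, 0.0731, 0.051 and 0.0919 (limma). That fit also leaves out brain WT array 4, which has no muscle array of its number. Leaving out that array alone lost the calls of Psmc3, Fnbp4 and Ext2 as well, so the 2 changes cannot be told apart there.

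The 4 members highest in brain over muscle were a secreted protein, a vesicle protein, a kinase scaffold and a sulfotransferase. C1qtnf4, a secreted protein of the C1q and TNF family made in brain, had levels of 3.36, 3.39, 3.44 and 3.45 in WT brain and of -1.63, -0.86 and -0.32 in WT muscle, 20.3-fold higher in brain (log2 4.34 ± 0.295, SE; adjusted p 1e-05, limma). Syt13, an atypical synaptotagmin, stood at 3.23, 2.87, 3.26 and 3.36 in brain and at -1.45, -0.34 and -0.97 in muscle, 17.2-fold higher. Mapk8ip1, the JNK scaffold, measured 5.57, 5.43, 5.37 and 5.42 in brain and 1.57, 2.47 and 1.37 in muscle, 12.5-fold higher. In all 3 the brain arrays lay closer together than the muscle arrays. Chst1, which adds sulfate to keratan chains, had brain levels of 4.17, 4.30, 4.59 and 4.71 and muscle levels of 2.76, 2.15 and 2.58, 3.86-fold higher in brain. Its window, shown above, held 1 CpG pair.

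The 4 members highest in muscle over brain were F2, Pacsin3, Nr1h3 and Mybpc3. F2 stood at -2.05, -1.57 and -0.36 in WT muscle and at -6.61, -6.74, -5.53 and -5.75 in WT brain, 28.4-fold higher in muscle (log2 difference -4.83 ± 0.471, SE; adjusted p 7.31e-05, limma). With 50 added to each intensity the difference was -2.96 and that of Pacsin3 -4.07, and the mean WT brain intensity of F2, 17.2, is near the floor, so its fold and its first place depend on that floor. Without Ttr, 7 of 7 liver markers were higher in WT muscle than in WT brain (median log2 difference -3.08, 2 past the threshold), with summed levels of 5.2 to 40.0 against 0.843 to 3.45, and their part in the F2 levels was not tested. Pacsin3 had levels of 4.33, 5.19 and 4.65 in muscle and of 0.42, 0.62, 0.63 and 0.75 in brain, 17.4-fold higher in muscle. Nr1h3 measured 1.86, 0.07 and 0.05 in muscle and -2.57, -3.04, -2.76 and -2.96 in brain, 11.2-fold higher, with muscle WT array 1 far above the other 2. Mybpc3 stood at -4.38, -3.77 and -5.43 in muscle and at -8.24, -7.25, -6.20 and -8.19 in brain, 7.69-fold higher, and its brain intensities were close to the lowest of the arrays, which limits that fold. The windows of Pacsin3 and Mybpc3 shown above matched the MEF2 pattern. The other Pacsin3 window and the windows of F2 and Nr1h3 held 0 matches to it. A link between the pattern and the tissue differences was not tested.

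Among the mitochondrial members, Ndufs3, Mtch2 and Ptpmt1 were higher in muscle, by 3.01-, 2.18- and 1.79-fold, and Pex16 did not pass (log2 -0.32). Of the Golgi and sugar chain group all 6 passed, with Acp2, Slc35c1, Chst1 and Ext2 higher in brain and Arfgap2 and Slc39a13 higher in muscle. The transcription factors Nr1h3, Creb3l1, Prdm11 and Zfp408 were higher in muscle and Phf21a, a histone reader of a repressor complex, was higher in brain, by 1.98-fold. Cd82, a tetraspanin, was 4.17-fold higher in muscle, and Ptprj 2.45-fold higher in brain. Of these, the calls of Mtch2, Ptpmt1, Acp2, Ext2, Prdm11 and Zfp408 did not hold under every alternative setting. The 1 probe of Zfp408 was the brightest of the members' probes, with mean intensities of 149100 in WT muscle and 111900 in WT brain. Whether it reads Zfp408 alone was not tested, and its call was lost with quantile normalization (adjusted p 0.87, limma). The 10 members that did not pass were Spi1, Atg13, Harbi1, Mdk, Dgkz, Pex16, Tspan18, Alx4, Kbtbd4 and Accs.

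Probes of the same gene did not always give the same tissue. Of the 14 members with several probes, 7 had probes of both signs in this comparison and 7 had a single sign. The Madd probe used was 2.06-fold higher in muscle (log2 -1.05), while the other Madd probe stood at 3.42, and with the mean of its probes Madd was higher in brain (log2 1.18, adjusted p 0.00595). The probes of Agbl2 ranged from -1.38 to 0.96, those of Mtch2 from -1.44 to 0.23, those of Prdm11 from -1.24 to 1.14 and those of Tspan18 from -1.81 to 1.28. The smaller ranges of Acp2, from -0.02 to 0.84, and Harbi1, from -0.15 to 0.12, also crossed 0. For Celf1 the probe used was 1.39-fold higher in brain (adjusted p 0.0366), its 3 probes ranged from -1.30 to 0.47, and the call was lost in 9 of 15 alternatives, among them the block (adjusted p 0.0888) and the omission of any single WT array except muscle 2 (adjusted p up to 0.0961). Of the 31 member calls, 4 were lost on leaving out a single array. Agbl2 lost its call without muscle WT array 1 or 2 or brain WT array 1 or 2, with an adjusted p of up to 0.14. Ext2 lost it without muscle WT array 1 or 2 or any brain WT array (up to 0.134). Fnbp4 and Psmc3 lost it without muscle WT array 2 or brain WT array 2, 3 or 4 (up to 0.0617 and 0.101).

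**Figure D5:**
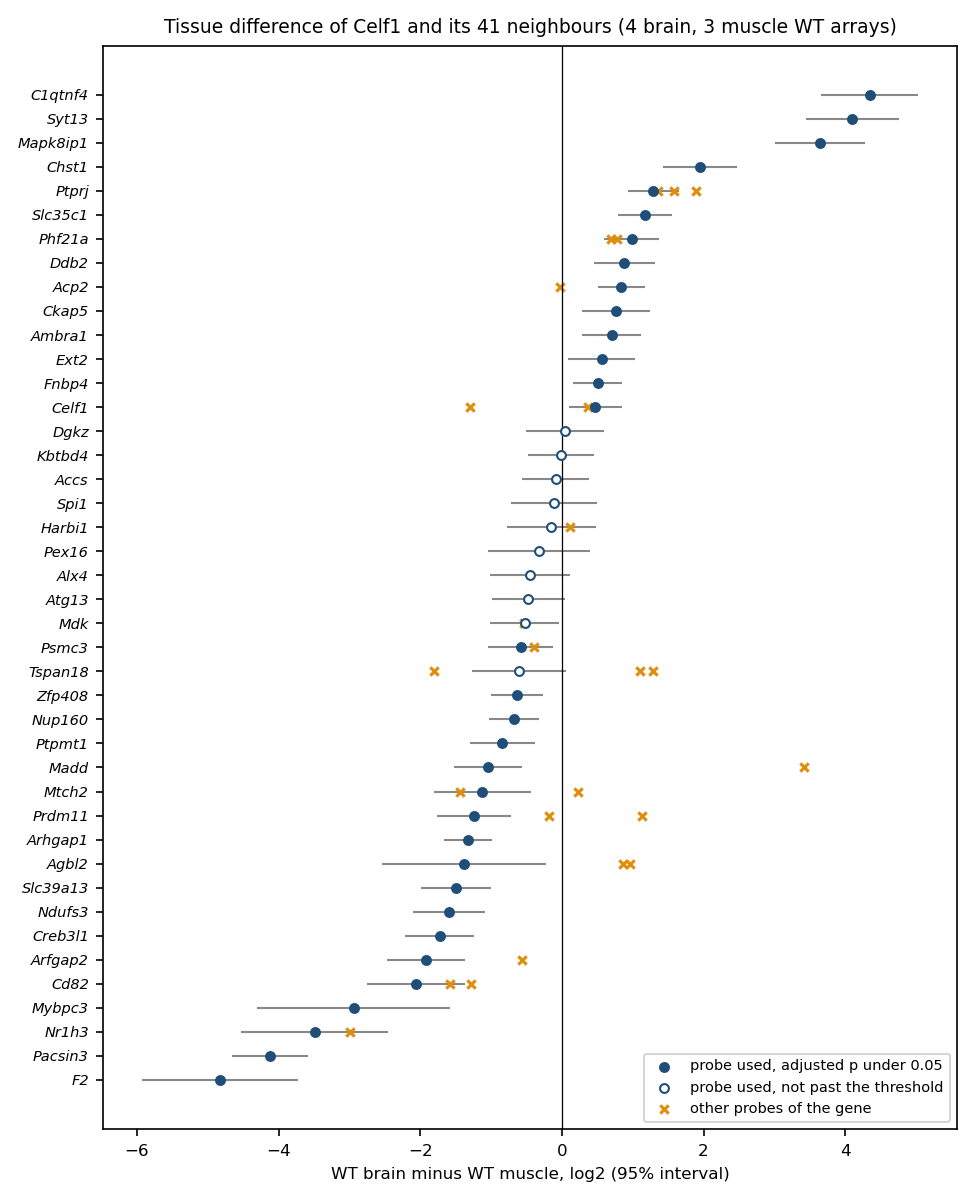
Difference of WT brain minus WT muscle (x axis, log2) for Celf1 and its 41 neighbours (y axis, sorted by the difference); filled blue points passed an adjusted p of 0.05, open ones did not, bars are 95% intervals, and orange crosses are other probes of the same gene. The points span -4.83 for F2 to 4.34 for C1qtnf4, and the cross of Madd at 3.42 lies on the other side of 0 from its blue point.

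The back-to-back pairs can be read side by side, with the difference within a pair not tested. Ndufs3 stood at -1.59 log2 (brain minus muscle), while Kbtbd4, whose windows overlap its own, stood at -0.02 (95% interval -0.48 to 0.45). Zfp408 was at -0.63 and Arhgap1, a GTPase-activating protein, at -1.33, both higher in muscle. Atg13 was at -0.47 and Harbi1, a transposase-derived gene, at -0.15, and neither passed. In KO against WT brain the 3 pairs stood at 0.15 and 0.22, at 0.04 and 0.10, and at 0.11 and -0.19, with 0 of the 6 genes past the threshold.

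The spread between arrays of a group was smaller in brain than in muscle. The members' median SD was 0.14 log2 in WT brain (0.227 over all genes), 0.131 in KO brain (0.177), 0.337 in WT muscle (0.381) and 0.289 in KO muscle (0.333). The lowest was that of Ckap5, a microtubule polymerase, in both brain groups, at 0.012 in WT and 0.032 in KO, and the highest that of Mybpc3 there, at 0.963 and 0.55. In muscle Acp2, the lysosomal acid phosphatase, had the lowest SD in WT, at 0.011, and Arhgap1 in KO, at 0.048, while Nr1h3 in WT and C1qtnf4 in KO had the highest, at 1.04 and 1.20.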

How the data were processed

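The authors deposited 1 table of linear-scale intensity values, 1 column per array and 55681 probes with 129 blank cells; per the submitters' processing notes the values came from Agilent Feature Extraction, and its version and the genome build are not given in the sources used here. No detection flags were used here. Of the probes, 30626 carry 1 gene symbol in the platform annotation, 0 carry several and 25055 are not listed; 30332 matched a gene of GRCm38.p6, used only for names and gene order. The 75th percentile of the named probes was subtracted from the log2 intensity of each array, and each gene was represented by its probe with the highest mean over 14 arrays, which gave 21893 genes. The groups were compared with limma 3.58.1 in R 4.3.3 (lmFit and eBayes, 2-sided, Benjamini-Hochberg over all genes, threshold 0.05), after a test on simulated data. KO was compared with WT within brain (4 and 4 arrays) and within muscle (3 and 3), the difference of these effects in 1 model over 14 arrays, and WT brain with WT muscle (4 and 3). Precision is limited by how many arrays each group holds.

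All 41 members are named. Values of every array are given for Celf1, the 3 nearest members on each side, members without overlap, the 5 smallest p in each KO comparison, and the 4 largest tissue differences each way. The members and lists were chosen with earlier results of these data known. Alternatives were no scaling, quantile normalization, 50 added to each intensity, only genes above the median level, the mean of all probes, the array number as a block, 1 model over all arrays, and leaving out arrays. The liver markers without Ttr were added after seeing the data. The deviations of same-numbered brain and muscle arrays correlated at r 0.118, 0.23 and 0.208 in WT for numbers 1 to 3. In KO they correlated at 0.188, 0.01 and 0.012. Arrays of different numbers were not compared between the tissues, and the labels state no pairing, so whether the numbers pair the tissues was not tested. The blocked tissue values are given where they change a call. Promoter windows are RefSeq's.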

Additional observations from a re-analysis of the deposited data

Results flagged for a closer look

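Each group of 4 brain arrays was searched for a single array far from the others, for Celf1 and the 41 members, which made 84 groups; chance gives about 1 in 20 such groups, and 2 were found. Ambra1, a scaffold of autophagy initiation, stood at a level of 1.89 in brain KO array 3, while the other brain KO arrays lay between 1.98 and 2.00. The gap was 0.833 of the range. Alx4, a homeobox factor of limb and skull patterning that was dim in brain, stood at -4.51 in brain KO array 1, while the others lay between -4.12 and -4.07, a gap of 0.874 of the range. Neither gene passed the threshold in brain.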

How the results depend on the processing

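The count of members past the threshold stayed at 0 in brain, in muscle and in the difference between the tissues under every alternative run. It stayed between 21 and 33 in the tissue comparison, where 7690 to 12798 of all genes passed. The deviations of same-numbered WT and KO arrays correlated at r 0.039, -0.045, 0.078 and 0.1 in brain and 0.165, -0.084 and 0.197 in muscle. In brain, 3 of 4 WT and 3 of 4 KO arrays correlated best with their own number in the other genotype. In muscle, 2 of 3 WT and 2 of 3 KO arrays did. Whether the numbers pair WT with KO was not tested. With the array number as a replicate block, all genes past the threshold went from 5 to 0 in brain, stayed at 0 in muscle and went from 2 to 1 for the difference. Between the tissues they went from 12011 to 11167, in a fit that also leaves out brain WT array 4. Celf1 in brain had an adjusted p of 0.23 with the block (limma). The block changed no other call of a member than those given above. All genes past the threshold in brain were 3 without scaling, 3 among genes above the median level, 2 in 1 model over all arrays, 0 without WT arrays 3 and 4, and 1 to 9 without single arrays. In muscle they were 1 with 50 added, 1 above the median level, 9 in 1 model and 0 to 1 without single arrays. For the difference they were 1 with 50 added, 1 without brain WT arrays 3 and 4 and 1 to 8 without single arrays, and between the tissues 7690 above the median level, where fewer genes were tested. Members without overlap in brain were 0 without scaling, 3 with the mean of all probes, 4 without WT arrays 3 and 4 and 1 to 6 without single arrays. In muscle they were 0 with quantile normalization, with 50 added, above the median level and with the mean of all probes. They were 4 to 6 in muscle without single arrays. Fewer arrays overlap less by construction, in both tissues. The share of all genes without overlap was not counted in these settings, so these counts cannot be set against it. With the mean of all probes the tissue difference changed sign for Celf1 (-0.15, adjusted p 0.437), Madd (1.18) and Agbl2 (0.15, adjusted p 0.667). The causes of these and the other changes were not tested. Spi1, Agbl2, Mybpc3 and F2 were dim in brain, so their brain values are to be read with caution.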
